A study of Mus musculus with 6 samples.

Results

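miR-183, miR-96 and miR-182 are miRNAs cut from 3 neighbouring hairpins of mouse chromosome 6, and their levels were examined here in embryonic mouse cardiomyocytes (EMCMs). The rows of the deposited miRNA table named miR-183, miR-96 or miR-182 were taken, on either strand, and these were 6 of the 689 rows. They hold both strands of each hairpin: miR-183 and miR-183*, miR-96 and miR-96*, and miR-182 and miR-182*, where the asterisk marks the strand that older miRNA names treat as the minor product. miR-1839, whose number only begins alike, was left out.

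The cells were wild-type E16.5 cardiomyocytes, labelled as Swiss Webster, grown on plates with a flexible floor coated with collagen. The 3 static samples were left unstretched for 24 hours, and the 3 stretched samples were lengthened cyclically by 16% at 1 Hz over the same time. The study's methods name another mouse background (CD1) and a larger number of samples than the labels, and whether samples of 1 group came from separate litters is not stated there. Small RNA was sequenced to ask which miRNAs respond to stretch.

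The measurement used was the mean abundance of each miRNA, deposited by the authors as a single value on a log scale. Its column carries the name that edgeR gives to a mean log concentration over groups. Such a value averages the logs of the groups, so shares below are not shares of the reads of all samples combined. The base of the log is not stated. Raised as powers of 2, the 689 values summed to 0.995, so each is read here as the log2 of a share of the miRNA reads, and every share and ratio given rests on that reading. Because the value is a single mean, it has no SD and no n. Sequencing depth is unknown, and levels are not given sample by sample. Whether the members differed between stretched and static samples was not tested here.

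The cluster is transcribed as a unit and is best known from sensory organs, among them the retina and the hair cells of the inner ear, where changes in the seed of miR-96 cause hearing loss. It is also found in epithelia and in many tumours. A miRNA finds its target mRNAs mainly through its seed, bases 2 to 8 counted from the 5′ end. FOXO1, a transcription factor that restrains growth, is among the known targets of miR-96 and miR-182.

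The sequences of the main strands show how alike the members are. All 6 strands had a match in the RefSeq miRNA table for GRCm38.p6, and the strands without an asterisk were taken as the 5p arms. The seed is in capitals:
miR-183: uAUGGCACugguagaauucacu
miR-96: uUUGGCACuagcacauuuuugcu
miR-182: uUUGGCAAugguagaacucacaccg

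miR-96 and miR-182 had bases 2 to 7 in common (UUGGCA), and their seeds matched at 6 of 7 positions. The seed of miR-183 matched that of miR-96 at 6 of 7 positions and that of miR-182 at 5 of 7. The perfect seed sites in DNA letters are thus GTGCCAT for miR-183, GTGCCAA for miR-96 and TTGCCAA for miR-182. Outside the seed the order was different. miR-182 and miR-183 were identical at 13 of 15 positions there, with the run UGGUAGAA at positions 9 to 16 of miR-182, whereas miR-182 and miR-96 were identical at 6 of 16 and miR-183 and miR-96 at 7 of 15.

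Among the 1738 mature miRNAs of the RefSeq table, bases 2 to 7 of miR-96 and miR-182 occurred in 3, the third being miR-1271-5p, which has the full seed of miR-96 and was not analysed here. Bases 2 to 7 of miR-183 occurred in miR-183 alone. The longest run shared by any pair of the 3 hairpins was 8 nt, shorter than the 18 nt of the shortest tag kept by the authors. A tag with a perfect match to one hairpin therefore had no perfect match to either of the others.

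The opposite strands are shown because miR-183* and miR-96* were almost unread and miR-182* was given no share, as described with the strands' levels. Their seeds are in capitals:
miR-183*: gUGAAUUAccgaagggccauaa
miR-96*: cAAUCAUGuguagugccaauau
miR-182*: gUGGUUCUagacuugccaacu

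In GRCm38.p6 the hairpins lie on the minus strand, Mir183 at chr6:30169668-30169737, Mir96 at chr6:30169446-30169551 and Mir182 at chr6:30165918-30165992. In the direction of transcription Mir183 comes first, followed after 116 bases by Mir96 and after a further 3453 bases by Mir182, and the 3 hairpins span 3820 bases. RefSeq places them within Mirc35hg, a long noncoding RNA gene of 15486 bases on the same strand (chr6:30158640-30174125). In the GENCODE annotation of GRCm38 no gene other than the hairpins themselves overlaps this span. The nearest protein-coding genes are Nrf1, 12459 bases away on the side of Mir182, and Ube2h, 41551 bases away on the side of Mir183.

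The hairpins carry the main strand, in capitals, on the 5′ arm, and are shown to place it within its precursor:
Mir183: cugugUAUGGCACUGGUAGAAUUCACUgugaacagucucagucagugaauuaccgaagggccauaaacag
Mir96: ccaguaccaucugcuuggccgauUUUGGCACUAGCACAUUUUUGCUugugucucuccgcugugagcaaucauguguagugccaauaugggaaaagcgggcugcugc
Mir182: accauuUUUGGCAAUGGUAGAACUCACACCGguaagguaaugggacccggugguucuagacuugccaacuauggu

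The predicted fold of Mir183 had a free energy of -26.2 kcal/mol over 70 nt, that of Mir96 -47.9 kcal/mol over 106 nt and that of Mir182 -29.9 kcal/mol over 75 nt. Per nucleotide this was -0.374, -0.452 and -0.399 kcal/mol, against a median of -0.406 kcal/mol in 1005 mouse hairpins. In the predicted folds 19 bases of miR-183, 19 of miR-96 and 18 of miR-182 were paired. The loops between the arms held 17, 19 and 18 nt.

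miR-182 was the most abundant member. It made up 0.166% of the miRNA reads in the authors' mean, a log2 level of -9.23, and stood at rank 47 of 689. miR-183 made up 0.0664% in the authors' mean (log2 level -10.56) and stood at rank 72. miR-96 was far lower, at 0.00273% in the authors' mean (log2 level -15.16) and rank 228. Of all rows, 93.2% were lower than miR-182, 89.6% lower than miR-183 and 66.9% lower than miR-96, so each main strand stood in the upper part of the table. For scale, the most abundant miRNA, the heart and muscle miRNA miR-22, made up 20.5% of the reads in the authors' mean.

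Together the members made up 0.235% of the miRNA reads in the authors' mean. Of this sum of shares, 70.6% was miR-182, 28.2% miR-183 and 1.16% miR-96. The log2 level of miR-182 was 1.32 above that of miR-183, a ratio of 2.50. That of miR-183 was 4.60 above that of miR-96, a ratio of 24.3, and miR-182 stood 60.7 times above miR-96. The levels did not follow the order along the transcript, since the lowest member lies between the others and only 116 bases from miR-183.

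**Figure D1:**
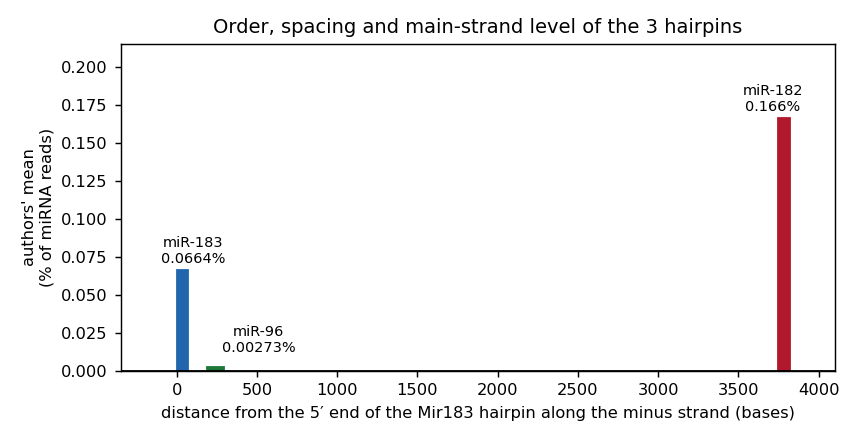
The bars stand at the place of each hairpin, in bases from the 5′ end of the Mir183 hairpin along the minus strand, with their width to scale, and their height is the authors' mean level of the main strand in percent of miRNA reads. miR-183 (0.0664%) and miR-96 (0.00273%) are close neighbours with very different levels, and miR-182 (0.166%) lies farthest along and is highest.

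**Figure D2:**
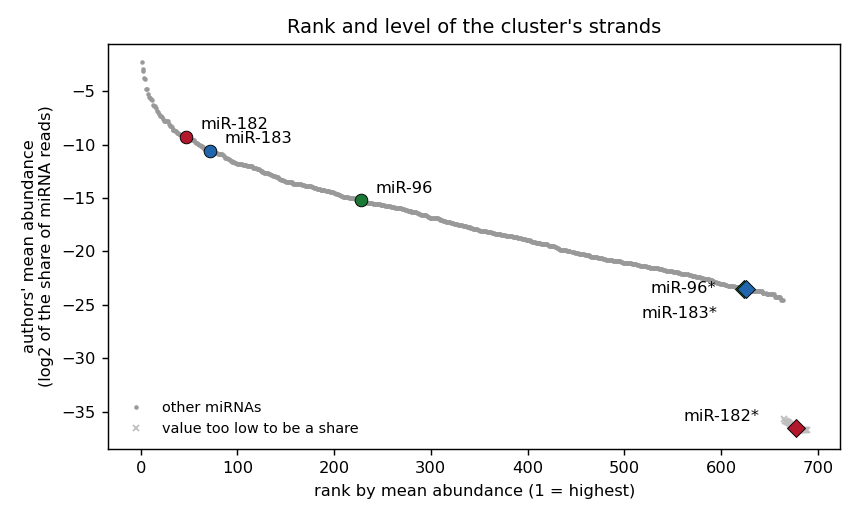
Each point is 1 of 689 miRNA rows, with its rank by mean abundance on the x axis and the authors' mean, as log2 of the share of miRNA reads, on the y axis; circles mark the main strands, diamonds the strands with an asterisk, and crosses the 25 values too low to be a share. miR-182, miR-183 and miR-96 lie at ranks 47, 72 and 228, miR-96* and miR-183* near the foot of the curve, and miR-182* below the break.

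The miRNAs nearest in level were taken as those most like each member, by the difference in log2 level. With 1 mean per miRNA, no pattern over samples could be compared. With no spread it cannot be said whether neighbours in this order differ. The 3 miRNAs next above miR-182 were miR-133a, a muscle miRNA, at 0.186%, miR-434-3p at 0.181% and miR-409-3p at 0.169%. Next below were let-7e at 0.159% and miR-199a-3p and miR-199b, which shared 1 value, 0.159%.

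Around miR-183 stood miR-145, the smooth muscle miRNA, at 0.0694%, miR-181c at 0.0683% and miR-221 at 0.0677% above, and miR-10a, encoded in a Hox cluster, at 0.0661%, miR-28* at 0.0633% and miR-130a at 0.0621% below. Around miR-96 stood miR-425 at 0.00280%, miR-1843-5p at 0.00280% and miR-503* at 0.00274% above. miR-155, a miRNA of activated immune cells, was next below at 0.00271%, before miR-154 at 0.00266% and miR-411* at 0.00264%.

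To place the cluster among cell types, its main strands were set beside lists of miRNAs that mark muscle and other cells. The cells are labelled cardiomyocytes, and markers of muscle were present beside those of other cells. All 7 listed muscle-enriched miRNAs (myomiRs) were measured, with a median log2 level of -10.39 for the main strands. Over all 13 of their strands that were given a share the median was -13.04, against -17.57 over the 664 such rows of the table. The highest was miR-208b, encoded in a myosin heavy chain gene, at 1.17% of the miRNA reads in the authors' mean. miR-182 was lower than 3 of the 7 myomiRs, namely miR-208b, miR-486 (0.194%, a value shared with miR-3107) and miR-133a (0.186%). It was higher than miR-208a-3p (0.0747%), miR-1a (0.0395%), miR-499 (0.0214%) and miR-133b (0.00106%). miR-183 was lower than 4 of the 7, and miR-96 lower than 6 of the 7. The myomiRs together made up 1.70% of the reads, and the cluster came to 0.138 times that share. Another muscle miRNA, miR-206, was not listed and stood at a log2 level of -18.89, lower than all 7.

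Epithelial miRNAs were far lower than the cluster. All 7 of them were measured, and their main strands lay between miR-200a at 0.000364% and miR-429 at 0.00127% in the authors' mean, with a median log2 level of -17.45. miR-96, the lowest main strand of the cluster, was higher than all 7. miR-182 was 131 times as high as miR-429, the highest of the list, a log2 difference of 7.04. The reads of the cluster were 46.0 times those of the whole epithelial list, which made up 0.00511%.

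Of 6 neural and retinal miRNAs, 4 had a main strand that was given a share, led by miR-128 at 0.0267%. miR-9, a miRNA of neural progenitors, stood at 0.00181% and miR-204, of the eye, at 0.00139%. miR-182 and miR-183 were higher than all 4, and miR-96 was lower than miR-128 alone. miR-124 had no row, and for miR-219 only miR-219-3p* was given a share, 0.000419%. Of the 4 immune miRNAs, the highest was miR-142-5p at 0.00749%, lower than miR-182 and miR-183 and higher than miR-96. The main strands of miR-155, miR-223 and miR-150 were lower than miR-96, as was miR-142-3p. Both erythroid miRNAs were lower than every main strand of the cluster, with miR-451 at 8.69e-05%.

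The endothelial list and the list of fibroblast and smooth muscle miRNAs also had members above the cluster. miR-126, from the endothelial gene Egfl7, was alone in its list. Its strand miR-126-5p stood at 0.464%, but miR-126-3p at 0.0129%, lower than miR-182 and miR-183 and higher than miR-96. In the fibroblast and smooth muscle list 2 of 5 miRNAs were higher than miR-182, and miR-143 was the second most abundant miRNA of the table, with 13.3% of the reads in the authors' mean. That list came to 14.0% of the reads, more than the 1.70% of the myomiRs, but this order rests on miR-143, which made up most of the sum. The value shared by miR-199a-3p and miR-199b was counted for both. Which cells of the cultures held the reads of the cluster was not tested, and more cells of a type cannot be told apart from more of a miRNA per cell.

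**Figure D3:**
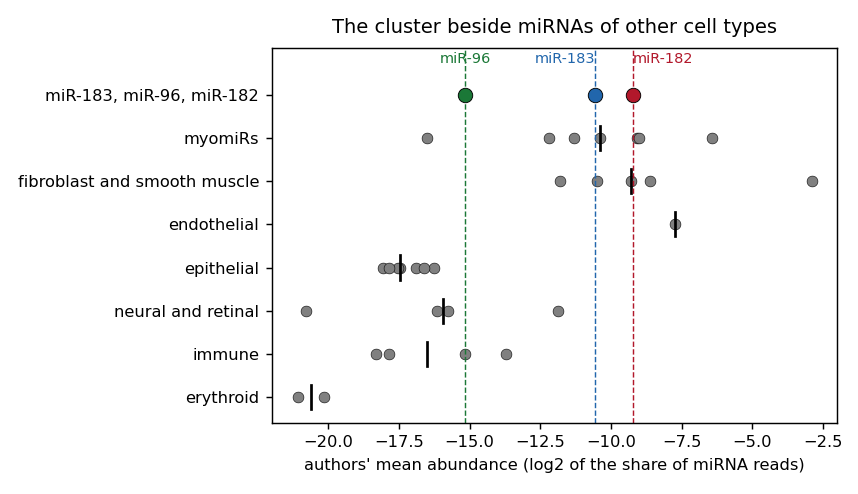
Each point is the main strand of 1 miRNA at its authors' mean, as log2 of the share of miRNA reads (x axis), by list (y axis); black bars are list medians and the dashed lines mark miR-96, miR-183 and miR-182. The 7 epithelial miRNAs all lie to the left of miR-96, while the myomiRs (median -10.39) lie on both sides of miR-183 and miR-182.

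The opposite strands of miR-96 and miR-183 were almost unread. miR-96* made up 8.32e-06% of the miRNA reads in the authors' mean and miR-183* 8.29e-06%, at ranks 624 and 626 of 689. Only 40 and 38 of the 664 rows given a share were lower, the lowest of them at 4.15e-06%. The log2 level of miR-183 was 12.97 above that of miR-183*, and that of miR-96 was 8.36 above that of miR-96*.

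miR-182* was deposited with a value of -36.55. It belongs to 25 rows with values from -36.76 to -35.64, which are separated from all others by a gap of 11.12 on the log2 scale and are far too low to be shares of reads. These rows were given no share and no fold. They were treated as placeholders for a group without reads, which was not tested. The value of miR-182* therefore does not give its level. Of the 25 rows, 13 are strands with an asterisk. For 8 of them, miR-182* included, the main strand has the same name without the asterisk, and of these main strands miR-182 was the highest, ahead of miR-376c at a log2 level of -14.41. The other 5 are named by 1 copy of a miRNA with several hairpins, and their main strands include let-7a, which was higher than miR-182 at a log2 level of -7.75, and miR-181b, which was close to it at -10.08.

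For comparison, 160 miRNAs had both strands given a share under the same name with and without an asterisk. Opposite strands named by hairpin copy, and strands named as -5p and -3p, were left out of this comparison. Its medians and places therefore do not cover all hairpins at these levels. A name can also stand for several hairpins, as that of miR-467a does. The log2 difference between the strands had a median of 4.44 and ran from -4.54 to 14.66. The difference of miR-183 was at place 4, with 3 miRNAs above it, miR-192, miR-100 and miR-143. That of miR-96 was at place 39. The difference is bounded by the level of the main strand, since the lowest measured level lay 13.97 below miR-183 and 9.36 below miR-96. Among the 19 of these miRNAs with a main strand within 1 log2 unit of miR-183, the median was 6.07 and miR-183 had the largest difference. Close behind it were miR-23a at 12.94, miR-10b at 12.65 and miR-300 at 12.63, and with no spread known their order cannot be judged. Among the 31 of these miRNAs within 1 log2 unit of miR-96, the median was 4.36 and the largest was 9.35.

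**Figure D4:**
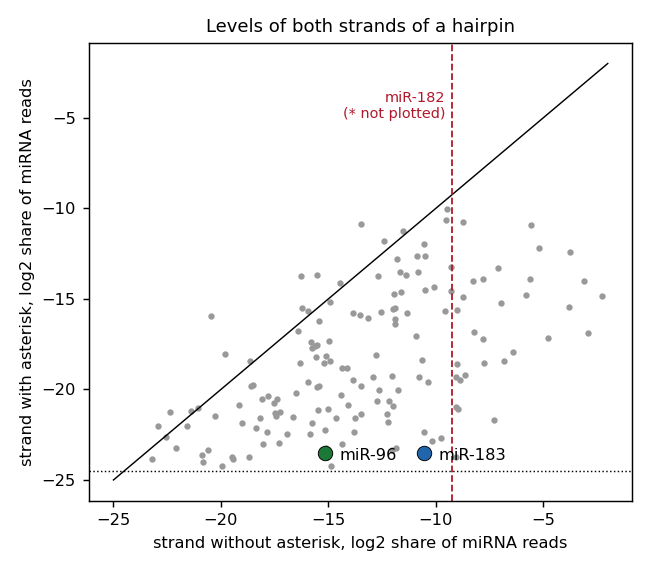
Each point is 1 of 160 miRNAs. The x axis gives the log2 share of miRNA reads of the strand without asterisk. The y axis gives that of the strand with asterisk. The solid line marks equal levels, the dotted line the lowest measured level and the dashed line miR-182, whose opposite strand has no share. miR-183 and miR-96 lie far below the solid line, with differences of 12.97 and 8.36.

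To see whether a wide spread of levels set the cluster apart, it was compared with other groups of hairpins that lie within 10000 bases of each other on the same strand. Of the 689 names, 659 were placed on a hairpin, and 15 groups with at least 3 measured hairpins resulted. Each hairpin was given the level of its higher strand. The range from miR-182 to miR-96 was 5.92 on the log2 scale and took place 9 of 15, with a median of 6.47 and extremes of 1.61 and 19.43. Groups with more hairpins have more room for a wide range, so those with exactly 3 were also taken alone. Among these 9, 3 had a wider range than the cluster, and the median was 4.92.

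The widest of the 9 was that of Mir92-2 with 11.23, from miR-92a to miR-18b, and the narrowest that of Mir23a with 1.61, from miR-27a to miR-24. miR-92a and miR-24 come from hairpins at more than 1 place, so their reads cannot be assigned to these groups alone. The epithelial group of miR-429, miR-200a and miR-200b had a range of 1.80. The spread within the cluster was therefore neither the widest nor the narrowest of those compared, and no test was run.

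**Figure D5:**
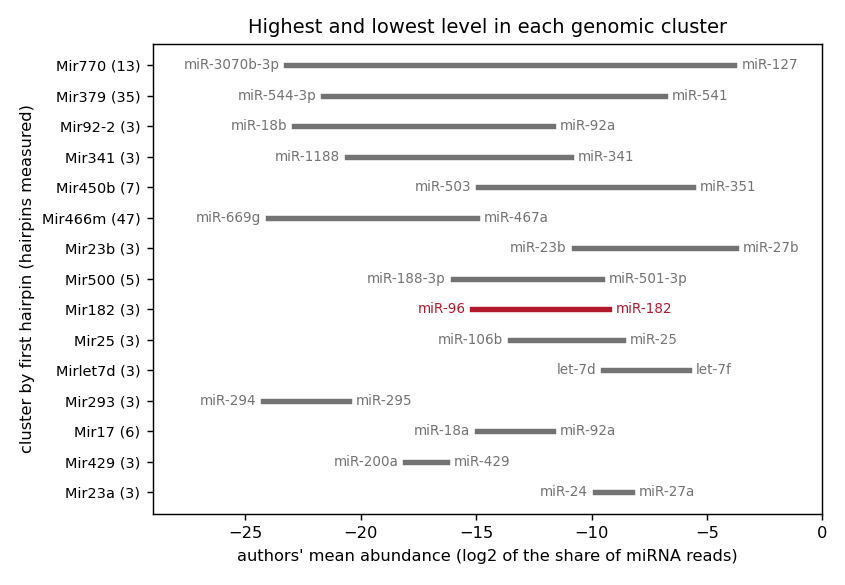
Each line runs from the lowest to the highest hairpin of a genomic group on the scale of the authors' mean, as log2 of the share of miRNA reads, with the groups ordered by range and named by their first hairpin, and the number of measured hairpins in brackets. The line of Mir182, from miR-96 to miR-182, has a range of 5.92 and lies at place 9 of 15.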

How the data were processed

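Small RNA libraries (TruSeq) of static and stretched EMCMs were sequenced by the authors, who kept tags of 18 to 30 nt, mapped them to the mouse genome with Bowtie2, summed the hits per gene ID and used edgeR, according to the methods. The submitters' processing notes, written by the authors, name Bowtie2 and DESeq. Genome build and versions are not given in the sources used here. The authors deposited 1 mean abundance per miRNA on a log scale, under edgeR's name for a mean log concentration over groups. Its base is not stated, and the deposited values were taken as log2 because their powers of 2 sum to 0.995. The other 4 columns hold the authors' own comparison (log2 fold change, signed fold change, P value and FDR) and were not used. Depth is unknown, so no interval is given, and no count test was run. Ligation captures miRNAs unequally, so a share of reads is not a molar share.

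Shares are 100 times 2 to the power of the deposited value. Values below a gap of over 5 log2 units were given no share. The text names all members, the 3 miRNAs on each side of a main strand, those sharing a seed, and the highest of each list and of the table; others were named after their values were seen. miR-1 was taken as miR-1a, its mouse name, also after the table was seen, and synonyms were added to place more names on hairpins once a first placement had been seen. Members and lists were chosen with earlier results of these data known. Hairpin positions came from RefSeq, and strands from GENCODE M21 or RefSeq, both on GRCm38. The steps for placeholders, shares, ranks, joining of hairpins and choice of members were tested on simulated or made-up input. The other steps were not tested in this way. Python 3.11.15, numpy 2.4.6, pandas 2.3.3, matplotlib 3.10.9 and RNAfold 2.7.2 were used.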

Additional observations from a re-analysis of the deposited data

How the results depend on the processing

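Of 34 alternative values, 33 stayed within a factor of 1.5 of the reported value. Many of them could hardly move. Rescaling or leaving out miR-22 changes all shares by a common factor, and leaving out placeholders cannot change the ranks above them. The count is therefore no measure of how firm the results are. The exception was the total share of the cluster, which went from 0.235% to 0.0691% without miR-182, its most abundant member. Without miR-22 the share of miR-182 was 0.210% and the total 0.297%. Among strands without an asterisk, miR-96 stood at rank 185 in place of 228. With hairpins joined up to 50000 bases the range within the cluster stayed at place 9, now of 21 groups, and without miRNAs of several hairpins it was at place 7 of 12. With hairpins joined up to 3000 bases it had no value, since Mir182 lies 3453 bases from Mir96. No paired analysis was possible because 1 mean per miRNA over the groups was used. For the same reason the comparison of stretched with static samples was not run, nor were its alternatives (DESeq2 size factors, no filter on low counts, leaving out each replicate). With depth unknown, the precision of the levels, those of miR-96* and miR-183* near the foot of the range included, cannot be given.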
